A study of Mus musculus with 18 samples.

Results

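The genes described here encode 10 antioxidant enzymes other than the mitochondrial superoxide dismutase Sod2: Sod1, Cat, Gpx1, Gpx4, Prdx3, Prdx5, Txn2, Txnrd2, Nqo1 and Hmox1. They were chosen by name, with earlier results of these data known. Each was found as 1 row of the deposited table of 55269 genes. All 10 were among the 19442 genes tested. The table holds the poly-A transcriptome of the substantia nigra, a midbrain region rich in dopaminergic neurons, at 3 months of age, with 6 mice in each of 3 groups and 1 library per mouse. The intact group is labelled wild type (WT) and had no virus named in its labels. The AAV-GFP group overexpressed green fluorescent protein (GFP) from an adeno-associated virus (AAV), and the AAV-SIRT3 group overexpressed SIRT3, a mitochondrial NAD-dependent deacetylase, from such a virus. Tissue from the virus groups was taken about a month after they received the virus. Strain, sex, the serotype of the virus, its promoter and the species of the SIRT3 sequence are not given in the sources used here. The labels name no control virus for the intact group, so a difference between AAV-SIRT3 and intact mice holds the virus and its delivery as well as SIRT3, and only AAV-SIRT3 against AAV-GFP compares SIRT3 at equal treatment.

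As background, respiring cells leak superoxide, which superoxide dismutases turn into hydrogen peroxide. Catalase, the glutathione peroxidases and the peroxiredoxins then break the peroxide down, and the thioredoxin and glutathione systems return these enzymes to their reduced state with electrons from NADPH. Dopaminergic neurons of the substantia nigra carry an added load, because the oxidation and breakdown of dopamine also yield peroxide and reactive quinones. Several of the enzymes are induced through NRF2, the transcription factor encoded by Nfe2l2, which KEAP1 holds back in unstressed cells. Much of what is known of SIRT3 and antioxidant defence concerns the deacetylation of proteins, which RNA levels do not measure.

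Of the 10 genes, 5 were higher in AAV-SIRT3 than in intact mice, by 16.8% (Sod1) to 25% (Gpx4), and none was lower, where 21.7% of all tested genes passed in either direction and 11.3% as higher. The other 3 were Gpx1, Prdx5 and Txn2. All 5 had means in the AAV-GFP group that lay between those of the intact and the AAV-SIRT3 group. The same held for Prdx3 and Txnrd2, which did not pass. Picking genes by the difference between AAV-SIRT3 and intact mice favours this order, so it is not separate evidence. None of the 10 genes passed the test between AAV-SIRT3 and AAV-GFP mice, where 0.113% of tested genes did, or between AAV-GFP and intact mice, where 1.84% did. Cat, Nqo1 and Hmox1, which respectively break down peroxide in peroxisomes, reduce quinones and degrade heme, did not pass in any of the 3 comparisons. The samples are bulk tissue, in which a different number of cells of a type and a different amount of RNA per cell cannot be told apart.

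The values are normalised reads: reads counted per gene and divided by a size factor per library. Between 47182420 and 64728400 reads per library fell in genes. The 10 markers of dopaminergic neurons, Th and Slc6a3 among them, were each detected in every group, with summed levels of 47607 to 63132 in the intact, 41307 to 52698 in the AAV-GFP and 47039 to 55942 in the AAV-SIRT3 group. Of these markers, Slc6a3, the dopamine transporter (-0.44, limma adjusted p = 0.0263), and Ret, a receptor kinase (-0.30, adjusted p = 0.0214), were lower in AAV-GFP than in intact mice, and the median log2 fold change of the 10 was -0.29. Between AAV-SIRT3 and AAV-GFP mice none passed, with values of 0.33 for Slc6a3 and 0.30 for Th (adjusted p = 0.143 and 0.122), 9 of 10 above 0 and a median of 0.20. The part of these differences in the results on the antioxidant genes was not tested. The row of Sirt3 itself gave 1824 ± 66.3 normalised reads in the intact group, 1775 ± 92.4 with AAV-GFP and 1937 ± 79.4 with AAV-SIRT3 (mean ± SD, n = 6 each). Sirt3 did not pass the test against AAV-GFP (limma, log2 fold change 0.13, adjusted p = 0.183), and whether RNA of the virus is counted in this row is not stated, so the groups are named by their labels alone.

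The stretches before the start sites of Sod1, Gpx1, Gpx4 and Txn2, which rose against intact mice, and of Cat and Nqo1, which did not pass, are shown so that the genes can be compared. They are from RefSeq (GRCm38.p6), which held an entry for 9 of the 10 genes. For Gpx4, which has 4 RefSeq starts, the one nearest the start of the principal transcript was taken. GENCODE places the starts of the genes Gpx1 and Gpx4 at 108338903 and 80047166. Part of the Gpx1 stretch and all of the Gpx4 stretch therefore lie within the annotated genes. Each was searched over the 250 bases before the RefSeq start, on both strands, for 4 short motifs, and each line is printed 5′ to 3′ up to the first base that GENCODE annotates as untranslated. The motifs were the core of the antioxidant response element bound by NRF2 (TGACNNNGC), the core bound by the mitochondrial biogenesis factor NRF1 (GCATGCGC), the site of FOXO factors (GTAAACA) and the CCAAT box (CCAAT). Capitals mark the matches, which read ATTGG where the CCAAT box lies on the other strand.
Sod1, chr16:90220512-90220753, plus strand: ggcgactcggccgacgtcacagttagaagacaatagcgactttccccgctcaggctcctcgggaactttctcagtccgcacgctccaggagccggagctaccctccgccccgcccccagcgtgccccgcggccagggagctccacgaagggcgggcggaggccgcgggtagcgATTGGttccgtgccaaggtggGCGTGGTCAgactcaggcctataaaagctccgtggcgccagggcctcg
Gpx1, chr9:108338830-108339053, plus strand: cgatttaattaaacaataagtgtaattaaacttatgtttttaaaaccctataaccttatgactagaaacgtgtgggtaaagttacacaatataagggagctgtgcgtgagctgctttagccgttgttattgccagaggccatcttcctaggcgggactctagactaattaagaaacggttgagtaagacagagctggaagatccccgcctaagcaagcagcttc
Gpx4, chr10:80053315-80053487, plus strand: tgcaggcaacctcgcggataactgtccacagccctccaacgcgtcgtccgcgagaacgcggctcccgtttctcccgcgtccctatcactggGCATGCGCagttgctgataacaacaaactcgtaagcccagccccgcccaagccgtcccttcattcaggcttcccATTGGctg
Txn2, chr15:77929007-77929244, minus strand: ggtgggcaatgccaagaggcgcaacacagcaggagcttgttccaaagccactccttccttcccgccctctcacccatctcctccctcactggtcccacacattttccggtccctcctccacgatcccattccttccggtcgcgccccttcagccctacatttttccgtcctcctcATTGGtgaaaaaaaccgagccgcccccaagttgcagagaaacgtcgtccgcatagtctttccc
Cat, chr2:103485161-103485403, minus strand: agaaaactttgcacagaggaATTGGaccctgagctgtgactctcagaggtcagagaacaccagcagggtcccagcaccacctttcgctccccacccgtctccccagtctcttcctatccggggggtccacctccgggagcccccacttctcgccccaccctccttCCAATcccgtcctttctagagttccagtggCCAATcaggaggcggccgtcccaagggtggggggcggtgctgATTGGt
Nqo1, chr8:107403207-107403455, minus strand: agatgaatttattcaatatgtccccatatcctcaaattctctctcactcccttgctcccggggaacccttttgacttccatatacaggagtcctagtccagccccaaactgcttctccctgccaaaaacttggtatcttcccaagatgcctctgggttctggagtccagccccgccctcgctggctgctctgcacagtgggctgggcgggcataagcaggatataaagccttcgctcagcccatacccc

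Letters of the antioxidant response element core were found before Sod1 alone among the 9 genes, from 56 to 48 bases before its start, as GCGTGGTCA on the opposite strand. Of all 32851 RefSeq windows of the same length, 10.2% hold that core. The NRF1 core lay before Gpx4 alone, 159 to 152 bases before the start, and 2.26% of all windows hold it. CCAAT boxes are common, with 1 or more in 33.8% of windows. The window of Cat held 4 of them, that of Gpx4 2, and those of Sod1 and Txn2 1 each. Of the pair before Gpx4, the box from 43 to 39 bases before the start lies past the printed stretch. The FOXO site, present in 3.17% of windows, was in none of the 9, and no matches overlapped each other. A CCAAT box was thus found before 3 genes that rose and 1 that did not pass, while the windows of Gpx1 and Prdx5, which rose, and of Prdx3, Txnrd2 and Nqo1, which did not pass, hold none of the 4 motifs. The window of Prdx5 runs through the neighbouring gene Trmt112 and is not printed. These are matches of letters, not measured binding. Bases further upstream were not searched, so a window without a motif does not show that the gene lacks such a site.

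Levels of different genes were compared as normalised reads per kilobase of the representative transcript, in intact mice (mean ± SD, n = 6). Sod1, the copper and zinc superoxide dismutase of the cytosol, stood highest at 17245 ± 577, above 99.5% of the tested genes that have a length. Gpx4 followed at 10501 ± 562, Prdx5 at 7318 ± 368 and Gpx1 at 3235 ± 131, and the libraries of these 4 genes did not overlap on this scale. Prdx3 at 2194 ± 64.2 and Txn2 at 2048 ± 71.1 overlapped each other. Cat, at 1680.5 ± 113, lay below both without overlap. The lowest 3 were Nqo1 at 252 ± 28.9, Txnrd2 at 195 ± 19.3 and Hmox1 at 186 ± 27.8, each overlapping its neighbour in the order. The 4 genes with the highest levels per kilobase were thus all among the 5 that rose, and the 3 lowest did not pass. These 4 also have the shortest transcripts of the 10, with 641 (Sod1), 959 (Gpx4), 1072 (Gpx1) and 1262 (Prdx5) bases. Txn2, which rose as well, has 2049 bases. Division by length places short transcripts higher in this order. In normalised reads without that division, Gpx1 (mean 3468) lay below Cat (4391) and Txn2 (4197) in intact mice. Fold changes against intact fell with transcript length over all genes, as given below, and whether level or length goes with the rises was not tested.

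**Figure D1:**
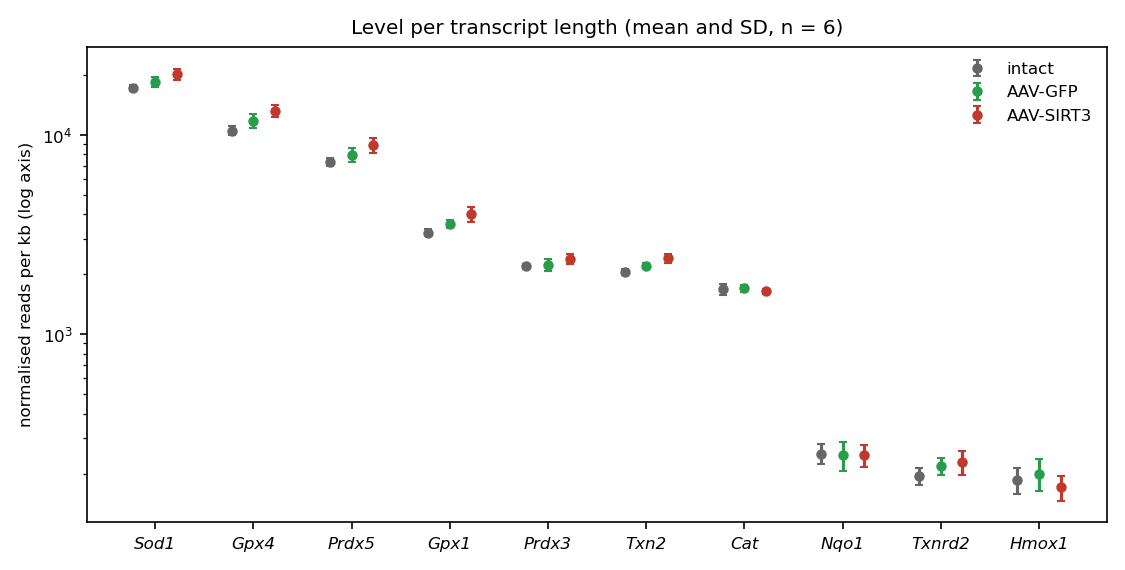
Normalised reads per kilobase of transcript (vertical log axis) for the 10 genes, as mean and SD over 6 libraries of each group. Sod1 stood at 17245 and Hmox1 at 186 in intact mice, and the mean of the AAV-SIRT3 group was the highest of the 3 groups for 7 of the 10 genes.

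Sod1 (ENSMUSG00000022982.10, chr16:90220754-90226329, plus strand) turns superoxide into hydrogen peroxide in the cytosol. Its normalised reads ran from 10597 to 11494 (median 11105) in intact, 11106 to 13062 (median 11719) in AAV-GFP and 11905 to 14316 (median 12799.8) in AAV-SIRT3 mice. Every AAV-SIRT3 library was above every intact library, while the AAV-GFP group overlapped both. The log2 fold change of AAV-SIRT3 against intact was 0.22 (SE 0.0447), a rise of 16.8% (limma adjusted p = 0.00208). Against AAV-GFP the difference was 0.13 (95% interval 0.03 to 0.22, adjusted p = 0.204). The gene overlaps Scaf4 (mean 2041 normalised reads), which lies on the other strand, and the strand setting of the counting is not given in the sources used here, so the level of any of the 10 genes that shares bases with a gene on the other strand is uncertain. Sod2, the mitochondrial counterpart, had log2 differences of 0.03 against intact and 0.08 against AAV-GFP and passed neither test (adjusted p = 0.637 and 0.365). The difference between Sod1 and Sod2 was not tested.

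The glutathione peroxidases Gpx1 and Gpx4 are selenium enzymes that spend glutathione to reduce peroxides. Gpx1 (ENSMUSG00000063856.7, chr9:108338903-108340343, plus strand) acts on hydrogen peroxide in the cytosol and in mitochondria. Its normalised reads ran from 3208 to 3597 (median 3493) in intact, 3611 to 4139 (median 3826) in AAV-GFP and 4011 to 4955 (median 4137) in AAV-SIRT3 mice. It was the 1 gene of the 10 in which the intact libraries lay below all 12 libraries of the virus groups. The rise in AAV-SIRT3 over intact mice was 24.2% (log2 0.31, SE 0.0491, limma adjusted p = 0.000617). Already AAV-GFP mice stood 10.7% above intact mice, with no overlap of the groups, but this did not pass the test over all genes (limma adjusted p = 0.108). An exact two-sided permutation test of that 1 difference gave an unadjusted p of 0.00216, the smallest that 6 against 6 allows and the value that groups without overlap always give. AAV-SIRT3 lay 12.2% above AAV-GFP (95% interval 4.28% to 20.1%), higher in 33 of 36 pairs of libraries, and did not pass either (limma adjusted p = 0.145). Within the AAV-SIRT3 group replicates 5 and 6 were highest, at 4955 and 4551, and the other 4 libraries lay between 4011 and 4192.

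Gpx4 (ENSMUSG00000075706.10, chr10:80047166-80056439, plus strand) reduces lipid peroxides within membranes and is known as the enzyme that guards cells against ferroptosis. Its normalised reads ran from 9239 to 10885 (median 10129.8) in intact, 10447 to 12779.6 (median 11165) in AAV-GFP and 11259.9 to 13985 (median 12500.1) in AAV-SIRT3 mice. AAV-SIRT3 and intact libraries did not overlap, and AAV-GFP replicates 2, 3 and 6 reached into the AAV-SIRT3 range. The rise over intact was the largest of the 10, 25% (log2 0.32, SE 0.0521, limma adjusted p = 0.000692). It divided evenly on the log2 scale, 0.16 from intact to AAV-GFP (adjusted p = 0.0969) and 0.16 from AAV-GFP to AAV-SIRT3 (adjusted p = 0.175). The table lists 2 pseudogenes of Gpx4, Gpx4-ps1 with a mean of 1.19 and Gpx4-ps2 with a mean of 80.8 normalised reads over the 18 libraries, so reads assigned to them were few beside those of Gpx4.

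The peroxiredoxins reduce peroxide through a cysteine that thioredoxin restores. Prdx5 (ENSMUSG00000024953.17, chr19:6906697-6910106, minus strand), found in mitochondria, peroxisomes and the cytosol, ran from 8630.4 to 9958 (median 9219) normalised reads in intact, 9337 to 11475 (median 9758) in AAV-GFP and 9854 to 12919.6 (median 11040.1) in AAV-SIRT3 mice. The lowest AAV-SIRT3 library, replicate 4, lay below the highest intact library, replicate 1, and every other pair of libraries from these groups kept the order. Prdx5 rose by 20.9% over intact (log2 0.27, SE 0.0559, limma adjusted p = 0.00236), and its log2 difference from AAV-GFP was 0.16 (95% interval 0.04 to 0.28, adjusted p = 0.203). The gene overlaps Trmt112 on the other strand, whose mean was 835 normalised reads. Prdx3 (ENSMUSG00000024997.7, chr19:60864051-60874556, minus strand), the mitochondrial peroxiredoxin, ran from 3089 to 3318 (median 3285) in intact, 3046 to 3713 (median 3263) in AAV-GFP and 3273 to 3812 (median 3493) in AAV-SIRT3 mice. The 3 groups overlapped, and the log2 difference of AAV-SIRT3 from intact was 0.12 (95% interval 0.02 to 0.21), which missed the threshold (limma adjusted p = 0.0721).

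Txn2 and Txnrd2 form the mitochondrial thioredoxin system. Txn2 (ENSMUSG00000005354.16, chr15:77915047-77929006, minus strand) encodes the thioredoxin that hands electrons to Prdx3 and Prdx5, and ran from 3979.7 to 4349.7 (median 4205) normalised reads in intact, 4319 to 4727 (median 4516) in AAV-GFP and 4526 to 5294 (median 4921) in AAV-SIRT3 mice. AAV-SIRT3 libraries all lay above the intact libraries. The rise was 17.1% (log2 0.23, SE 0.0374, limma adjusted p = 0.000701). The steps from intact to AAV-GFP (0.11, adjusted p = 0.127) and from AAV-GFP to AAV-SIRT3 (0.12, adjusted p = 0.15) were of like size and did not pass. Txnrd2 (ENSMUSG00000075704.16, chr16:18426384-18479073, plus strand), the selenium-containing reductase that recharges Txn2, ran from 477 to 622 (median 561) in intact, 550.0 to 719 (median 623) in AAV-GFP and 589 to 771 (median 608) in AAV-SIRT3 mice. Its AAV-SIRT3 libraries fell into 4 between 589 and 619 and 2, replicates 5 and 6, at 771 and 769. The log2 difference from intact, 0.22, was close to that of Txn2, but with an SE of 0.0876 it did not pass (limma adjusted p = 0.0724).

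Cat (ENSMUSG00000027187.10, chr2:103453849-103485160, minus strand), catalase, breaks down hydrogen peroxide without a reducing partner, mainly in peroxisomes. Its normalised reads ran from 4118 to 4949 (median 4304) in intact, 4180.1 to 4705 (median 4444) in AAV-GFP and 4104 to 4481 (median 4300.1) in AAV-SIRT3 mice, and the groups overlapped. Catalase was among the more precisely measured genes, and its log2 difference of -0.03 from intact had a 95% interval of -0.11 to 0.06 (limma adjusted p = 0.657), which leaves out rises of the size measured for the 5 genes that passed. Against AAV-GFP the log2 difference was -0.05 (95% interval -0.13 to 0.04, adjusted p = 0.598).

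Nqo1 and Hmox1 are widely used as indicators of NRF2 activity. Nqo1 (ENSMUSG00000003849.8, chr8:107388225-107403206, minus strand), which reduces quinones fully and so avoids reactive semiquinones, ran from 334 to 441 (median 394) normalised reads in intact, 315 to 476 (median 367) in AAV-GFP and 308 to 433 (median 389) in AAV-SIRT3 mice. Hmox1 (ENSMUSG00000005413.8, chr8:75093621-75100589, plus strand), the inducible heme oxygenase, ran from 241 to 354 (median 293) in intact, 260.2 to 388 (median 311) in AAV-GFP and 211 to 319 (median 263) in AAV-SIRT3 mice. The 3 groups overlapped broadly for both genes. Nqo1 differed from intact by -0.03 (95% interval -0.26 to 0.19) and from AAV-GFP by -0.0020 (-0.23 to 0.22) on the log2 scale (limma adjusted p = 0.863 and 0.996). For Hmox1 the log2 differences were -0.12 (-0.38 to 0.13) and -0.22 (-0.48 to 0.03), with adjusted p = 0.512 and 0.398. These intervals are wider than those of the other genes, and that of Nqo1 holds changes of up to 14.3% upward against intact.

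**Figure D2:**
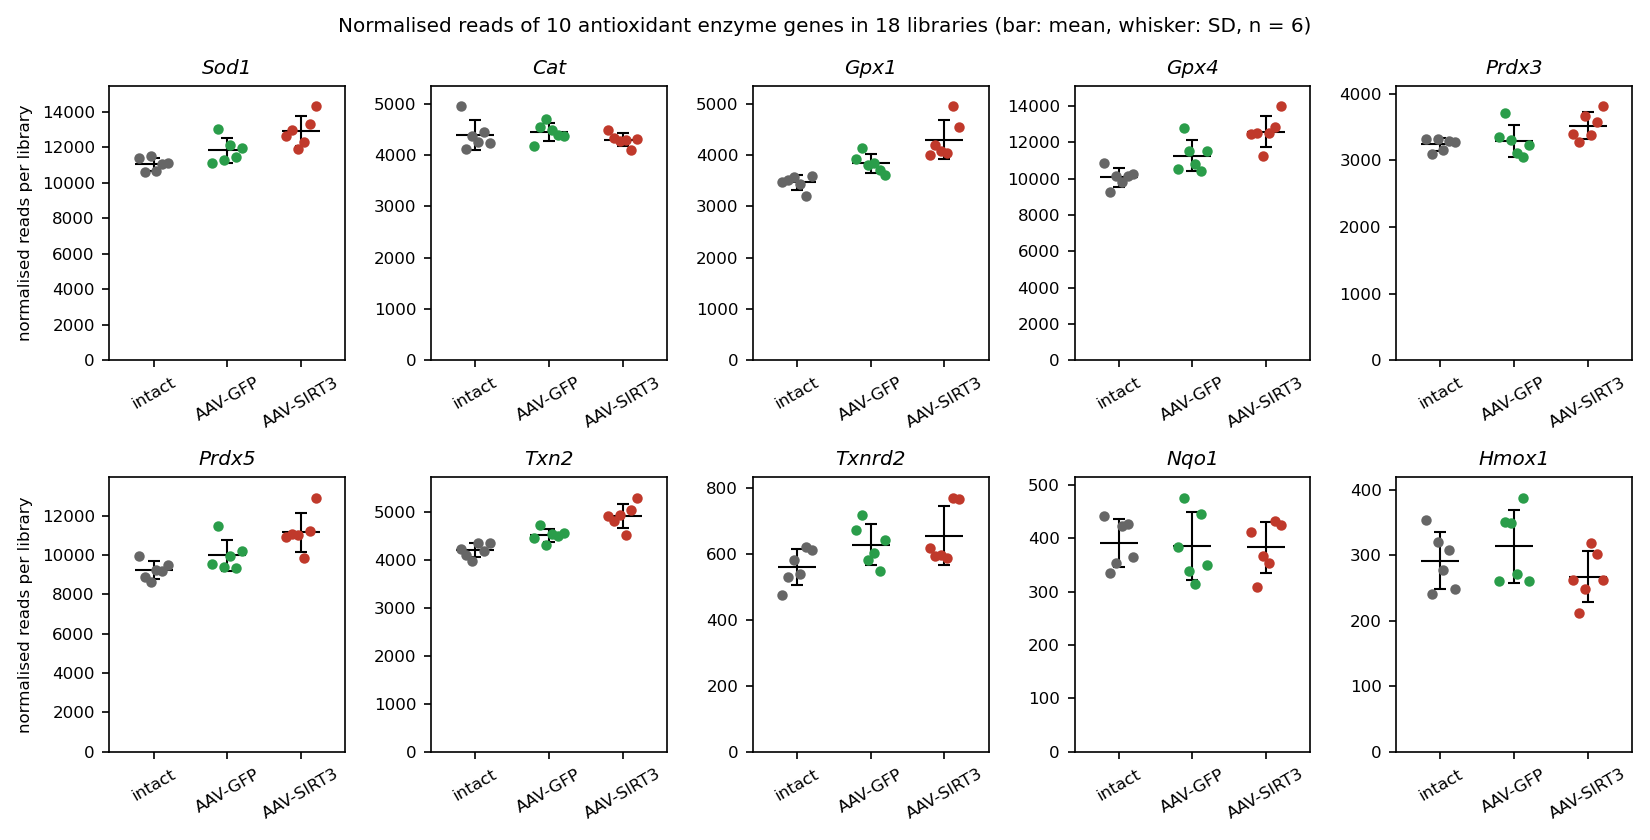
Normalised reads (vertical axis from 0) of each gene in each library, with 6 points per group and the mean and SD. For Sod1, Gpx1, Gpx4 and Txn2 the AAV-SIRT3 points all lie above the intact points, and AAV-GFP replicate 2 is the highest AAV-GFP point in 8 of the 10 panels.

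Against intact mice, AAV-SIRT3 mice thus had 5 of the 10 genes called at an adjusted p under 0.05, all higher, where 21.7% of the tested genes were called in either direction and 11.3% as higher. The median log2 fold change of the 10 was 0.22, beside -0.0049 over all tested genes. In 4 of the 10 the AAV-SIRT3 libraries lay wholly above the intact libraries, a pattern that 5.01% of tested genes showed. The smallest possible exact two-sided permutation p, 0.00216 from 924 splits, was reached by these 4 (unadjusted).

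Between AAV-SIRT3 and AAV-GFP mice, 0 of the 10 genes were called, where 0.113% of tested genes were. At an unadjusted p under 0.05, limma gave 6 of the 10 (Sod1, Gpx1, Gpx4, Prdx3, Prdx5 and Txn2, all higher). Of tested genes, 15.2% were under it in either direction and 8.13% as higher. edgeR and DESeq2 on the recovered reads also called 0. The median log2 fold change of the 10 was 0.11, and 7 of 10 values were above 0. The values of Gpx1, Gpx4 and Prdx5 were the highest, each 0.16, and that of Hmox1 the lowest, -0.22. This comparison depended on 1 library: without AAV-GFP replicate 2, 5 genes passed, Sod1, Gpx1, Gpx4, Prdx5 and Txn2, where 4.43% of all tested genes did. Their log2 fold changes were then 0.15, 0.18, 0.20, 0.20 and 0.14, with limma adjusted p from 0.0284 (Gpx4) to 0.0468 (Txn2). No other library, left out alone, let any of the 10 pass.

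Between AAV-GFP and intact mice, 0 of the 10 genes were called by limma, edgeR or DESeq2, where 1.84% of tested genes were by limma. At an unadjusted p under 0.05 limma gave 4, Sod1, Gpx1, Gpx4 and Txn2, all higher. Of tested genes, 19.1% were under it in either direction and 9.59% as higher. Gpx1 was the 1 gene with no overlap between these groups, which 0.874% of tested genes showed in that direction. The median log2 fold change of the 10 was 0.10, with 9 of 10 values above 0. The 3 comparisons share groups, AAV-GFP libraries entering as the first group here and as the second group against AAV-SIRT3, so their values are set side by side and not counted as separate evidence.

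**Figure D3:**
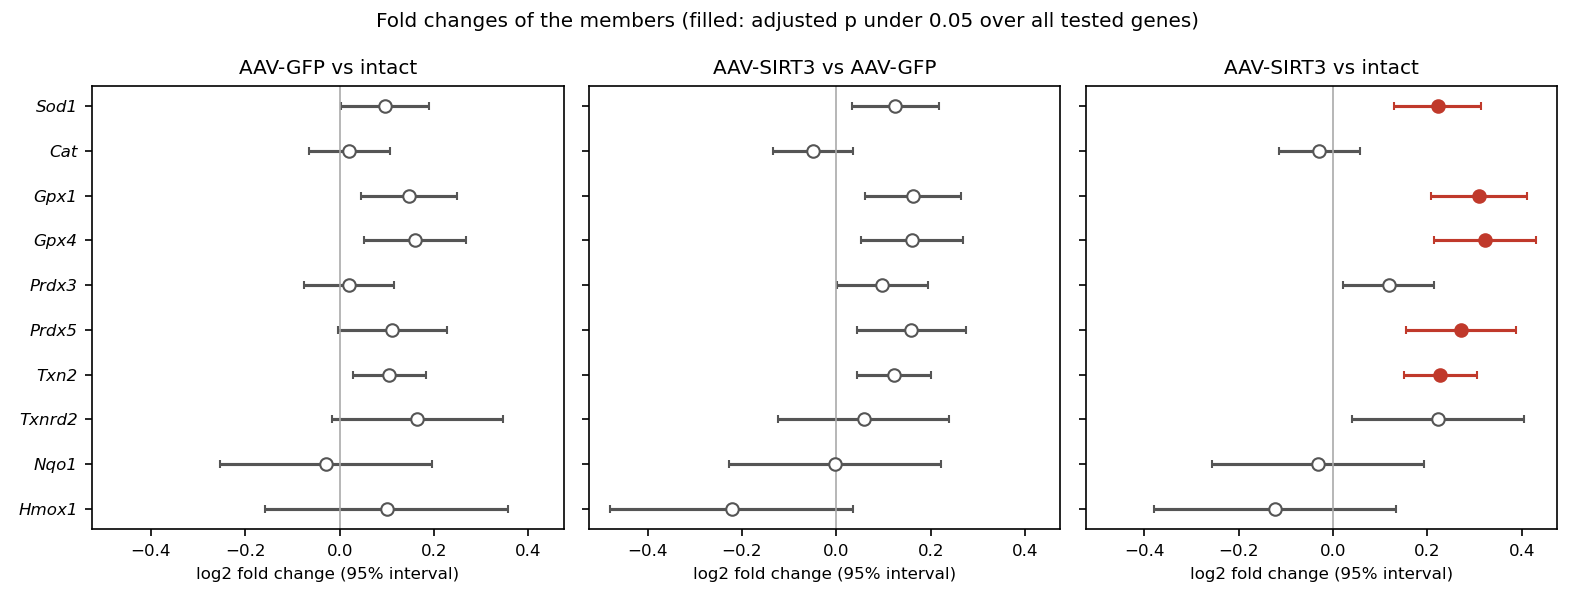
Log2 fold changes with 95% intervals (horizontal axis) of the 10 genes in the 3 comparisons, with filled red points for an adjusted p under 0.05 over all tested genes. Filled points appear only for AAV-SIRT3 against intact, at Sod1, Gpx1, Gpx4, Prdx5 and Txn2, between 0.22 and 0.32.

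Some libraries were the highest or lowest of their group for several of the genes at once. AAV-GFP replicate 2 topped its group for 8 of the 10 genes, all but Cat and Hmox1, and AAV-SIRT3 replicate 6 for 5, Sod1, Gpx4, Prdx3, Prdx5 and Txn2. AAV-SIRT3 replicate 5 was highest for 3, Gpx1, Txnrd2 and Nqo1. Intact replicate 1 was the highest intact library for 6, Cat, Gpx4, Prdx3, Prdx5, Nqo1 and Hmox1, and intact replicate 2 the lowest for 6, Sod1, Cat, Gpx4, Prdx3, Nqo1 and Hmox1. The 3 named libraries of the virus groups had the steepest trend of gene level with transcript length. Across genes, the Spearman correlation of a library's deviation from the gene mean with transcript length was -0.33 in AAV-GFP replicate 2, -0.33 in AAV-SIRT3 replicate 6 and -0.25 in AAV-SIRT3 replicate 5, while it was 0.15 in intact replicate 1 and 0.17 in intact replicate 2, and the intact libraries ran from 0.10 to 0.20. Short transcripts thus stood higher in those libraries, and fold changes of AAV-SIRT3 against intact fell with length (rho -0.27 over genes). The comparisons were therefore refitted in 2 ways. With the 3 libraries left out, a choice made after seeing the data, 5 of the 10 genes were again called against intact (15.1% of tested genes). The median log2 fold change of the 10 was then smaller, 0.14 beside 0.22 with all libraries. After each library's trends with length and GC content were removed, 7 were called, all higher, where 23.2% of tested genes were called in either direction and 17.5% as higher. The 5 genes kept log2 fold changes of 0.18 (Sod1), 0.24 (Gpx1), 0.25 (Gpx4), 0.20 (Prdx5) and 0.21 (Txn2), and Prdx3 at 0.13 and Txnrd2 at 0.22 were added (limma adjusted p = 0.0394 and 0.0486). Over their alternatives, the adjusted p of Prdx3 ran from 0.035 to 0.181 and that of Txnrd2 from 0.0486 to 0.399. This refit also moved the balance of all calls, from 2206 higher of 4214 to 3301 higher of 4363. It moved the median log2 fold change over all genes in the fit from -0.0049 to 0.042, and that of the 10 genes from 0.22 to 0.19. Against AAV-GFP it let Txn2 pass (0.13, adjusted p = 0.0486, with a range of 0.0468 to 0.304 over its alternatives), where 1.29% of tested genes did.

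**Figure D4:**
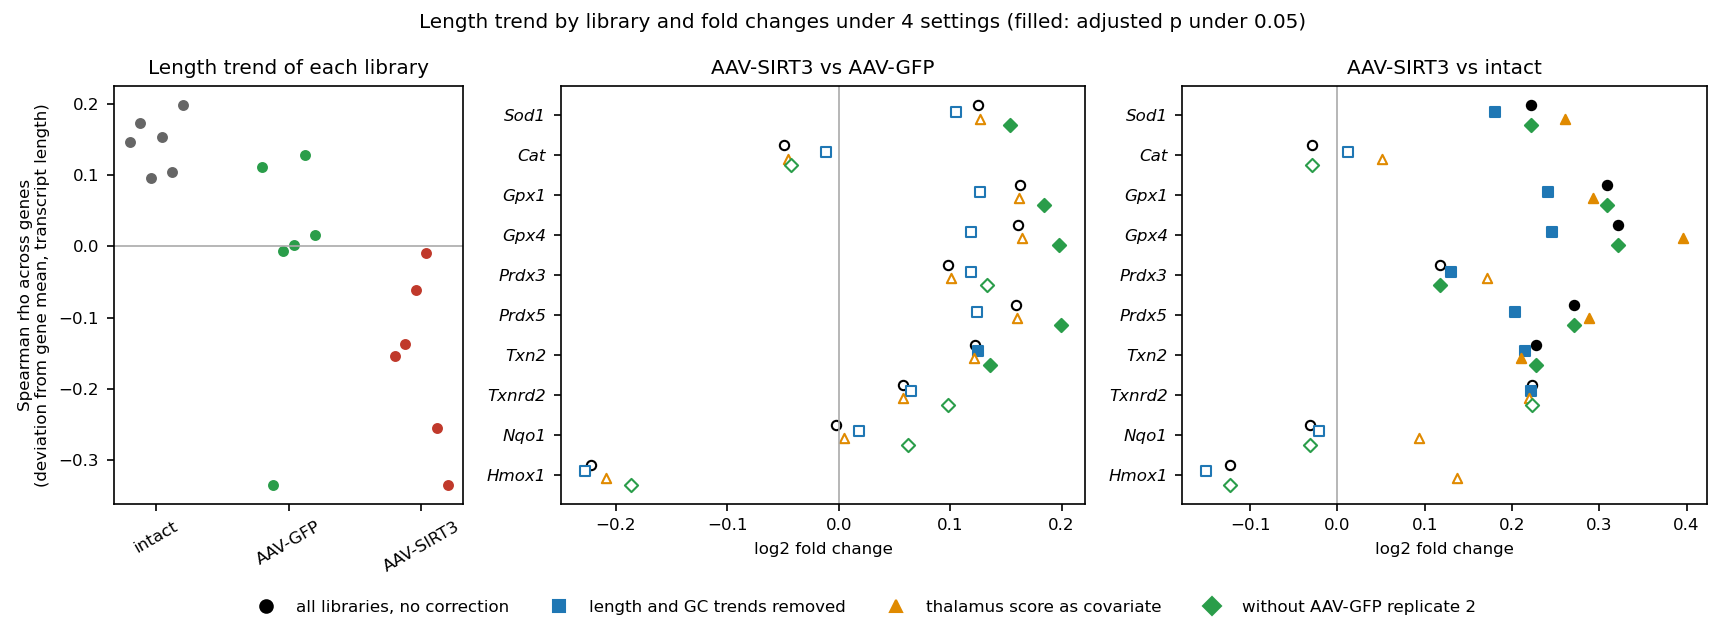
Left, Spearman rho across genes between each library's deviation and transcript length, by group; middle and right, log2 fold changes of the 10 genes under 4 settings, filled where the adjusted p was under 0.05. AAV-GFP replicate 2 is the lowest AAV-GFP point at -0.33, and the 5 genes called against intact are filled in all 4 settings of the right panel.

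Markers of other cell types and of neighbouring tissue also moved with the groups. Of 10 markers of the thalamus, 8 were higher in AAV-SIRT3 than in intact mice, where 11.3% of tested genes were higher and 10.3% lower, and their summed level ran from 29817 to 73179 in intact, 59944 to 70911 in AAV-GFP and 57347 to 79274 in AAV-SIRT3 libraries. With the mean log2 level of these markers as a covariate, the same 5 genes were called against intact, where 8.72% of tested genes were, and with intact replicates 1, 3 and 5, the lowest in this score, left out (a choice made after seeing the data) they were called where 8.67% were. With the covariate the log2 fold change of Gpx4 was 0.40 and that of Hmox1 turned from -0.12 to 0.14, neither of the Hmox1 values passing. Microglia markers were higher in AAV-SIRT3 than in intact mice in 6 of 10 cases, with summed levels of 20987 to 23315 in intact, 23141 to 29612 in AAV-GFP and 23682 to 28146 in AAV-SIRT3 mice. Of 8 markers of activated microglia, 7 were higher in AAV-GFP than in intact mice, where 0.823% of tested genes were higher. Against the same intact mice, AAV-SIRT3 mice had 5 of the 8 higher. The summed levels of the 8 were 73033 to 90050.0 (intact), 93829 to 112700.0 (AAV-GFP) and 87592 to 108235 (AAV-SIRT3). Most of each sum was Apoe, with group means of 76036 (intact), 96120 (AAV-GFP) and 88358 (AAV-SIRT3) normalised reads. The sums therefore mainly follow that 1 gene and say little about the other markers. Endothelial markers were lower in AAV-SIRT3 than in intact mice in 4 of 8 cases and higher in 1, with summed levels of 9563 to 12473 in intact, 10289.6 to 13109 in AAV-GFP and 8403 to 12388 in AAV-SIRT3 mice. Of 5 tested markers of the anterior pituitary, 4 were lower than in intact mice in each virus group, where 1.02% of tested genes were lower in AAV-GFP mice, with median log2 fold changes of -2.95 in AAV-GFP and -3.16 in AAV-SIRT3 mice. Their summed level ran from 724 to 5414 in intact, 240.0 to 689.6 in AAV-GFP and 229 to 788 in AAV-SIRT3 libraries. Of 6 choroid plexus markers, 2 were lower in AAV-SIRT3 than in intact mice, with summed levels of 941 to 48407 in intact, 611 to 42707 in AAV-GFP and 580.4 to 1762 in AAV-SIRT3 mice. Against intact mice, 5 of 10 microglia, 1 of 10 thalamus and 1 of 8 astrocyte markers were higher in AAV-GFP mice, and 2 of 8 oligodendrocyte and 1 of 6 GABAergic neuron markers in AAV-SIRT3 mice. Between AAV-SIRT3 and AAV-GFP mice, 1 of 10 microglia and 2 of 8 activated microglia markers were lower, where 0.0772% of tested genes were. No marker of these lists was at 0 in all libraries of a group, and the part of these cell types and tissues other than the thalamus in the results was not tested.

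The wider antioxidant pathway was read from 67 further genes in 10 roles, 66 of which were tested. Against intact mice, 20 were higher and 2 lower in AAV-SIRT3 mice, beside 11.3% and 10.3% of tested genes, and their median log2 fold change was 0.10. Without AAV-SIRT3 replicate 6, 14 were called. The largest rises were those of Mgst3, a microsomal glutathione transferase (0.43), Msrb1, a selenium enzyme that repairs oxidised methionine (0.41), the biliverdin reductase Blvrb (0.37), the small selenoprotein Selenow (0.36), the mitochondrial glutaredoxin Glrx5 (0.28) and the ferritin heavy chain Fth1 (0.25), with limma adjusted p from 0.000601 (Selenow) to 0.0242 (Blvrb). Selenow had 16456 ± 1493 against 12751 ± 502 normalised reads (mean ± SD, n = 6 each). The 2 that fell were Bach1, a repressor of Hmox1 and other NRF2 targets (-0.22, adjusted p = 0.0299), and Sesn3, a sestrin (-0.18, adjusted p = 0.0305). Neither fall held in every setting: 0 genes of the list were lower with length and GC trends removed (27 higher), with the thalamus covariate (15 higher), without a filter on low values (14 higher), without intact replicates 1, 3 and 5 (15 higher), without intact replicate 3 (15 higher) or without AAV-SIRT3 replicate 6 (14 higher). By role, all 4 remaining peroxiredoxins were higher, named here after their values were seen: Prdx1 at 0.15, Prdx2 at 0.22, Prdx4 at 0.20 and Prdx6 at 0.24 on the log2 scale (limma adjusted p = 0.0284, 0.00132, 0.0313 and 0.00300). None of the 3 tested genes of superoxide dismutation or of the 3 other glutathione peroxidases passed, and of 9 regulators 1 did, Bach1, whose call is lost in those settings. Nfe2l2 differed by 0.08 and Keap1 by 0.10 from intact (adjusted p = 0.461 and 0.0685).

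**Figure D5:**
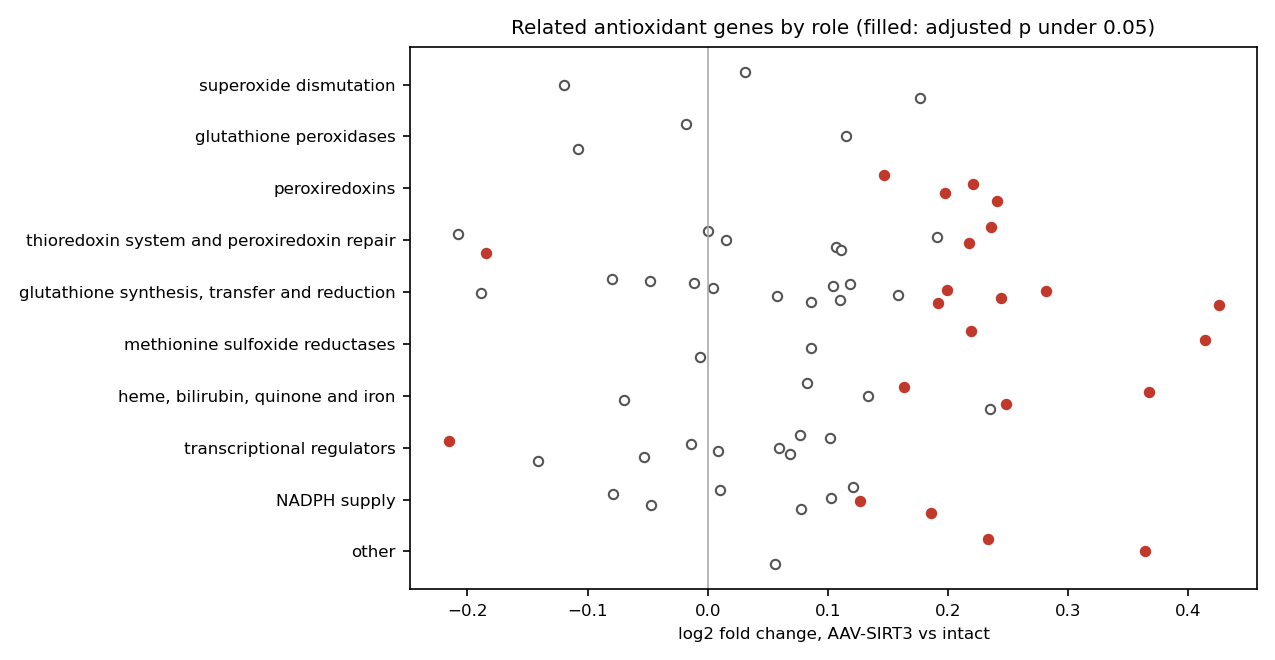
Log2 fold changes of 66 related antioxidant genes in AAV-SIRT3 against intact mice (horizontal axis), by role, filled where the adjusted p was under 0.05. The 4 peroxiredoxins are all filled, and the 2 filled points left of 0 are Sesn3 at -0.18 and Bach1 at -0.22.

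Between AAV-SIRT3 and AAV-GFP mice, limma called 0 of these 66 genes, where 0.113% of tested genes were called, and DESeq2 called 3 of 65, where it called 1.77% of its tested genes. Against intact mice, 2 of the 66 passed in AAV-GFP mice, near the 1.84% of tested genes called: Prdx6, a peroxiredoxin that also acts on phospholipids (0.25, limma adjusted p = 0.0184), and Msrb1 (0.27, adjusted p = 0.0441), and between 1 and 3 passed when single libraries were left out. Of 7 genes of the phagocyte NADPH oxidase and its relatives, which make superoxide, 2 were higher in AAV-GFP than in intact mice, where 0.823% of tested genes were. These were Cybb, the catalytic subunit, at 129 ± 51 against 52 ± 16.6 normalised reads (1.23 on the log2 scale), and its partner Cyba, at 331 ± 64.1 against 218 ± 33.8 (0.59), with adjusted p = 0.038 and 0.0487. In AAV-SIRT3 against intact mice Ncf1, a cytosolic subunit, was the 1 of the 7 that rose (0.36, adjusted p = 0.0108), a share near the 11.3% of tested genes called higher. Gpx1, Gpx4 and Txnrd2 need selenocysteine, and of 6 genes for its synthesis and insertion Sephs2, which makes the selenium donor, was the 1 called higher in AAV-SIRT3 than in intact mice (0.22, adjusted p = 0.0112). That share is also near the 11.3%, and the 6 had a median log2 fold change of 0.02 with 3 values above 0.

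Within the groups, the genes varied together to different degrees. Correlations were taken over the 18 libraries on deviations from group means of log2 values, which share each library's depth, scaling and length trend, and are given as a description. Prdx5 and Txn2 were the most alike pair of the 10 (Pearson r 0.86), followed by Sod1 and Gpx4 (0.83) and Sod1 and Prdx5 (0.77). Cat went against Txnrd2 (-0.39). For each gene the 3 most alike of 15244 genes were also found, values that are high in part because they are the highest of many. For Sod1 these were Rps26 (0.97), Rpl7a (0.92) and Eif1b (0.91), for Gpx4 Rpl4 (0.93), Rps6 (0.91) and Mdh2 (0.91), and for Txnrd2 they included Rps19 (0.86) and Dync2i2 (0.86). Most of these encode ribosomal proteins. Prdx5 was closest to Cox4i1 (0.96), Cox6b1 (0.94) and Fbxo44 (0.94), and Txn2 to Ndufa2 (0.90), Elob (0.89) and Ndufa7 (0.89), among them subunits of the respiratory chain. Gpx1 was closest to Anapc16 (0.89), Eif2b2 (0.82) and Lsm4 (0.82), Prdx3 to Rabac1 (0.92), Psmb4 (0.88) and Abhd16a (0.87), and Cat to Alas1 (0.91), Klc1 (0.90) and Nkx6-1 (0.90). The values were lower for Nqo1, with Mrpl40 (0.78) and Mustn1 (0.78) among them, and Hmox1, with Kit (0.80), Siae (0.79) and Cdh22 (0.78).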

How the data were processed

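The deposited table holds a signal per gene and library, HTSeq read counts normalised by DESeq2 per the name of the deposited table. Per the submitters' processing notes, HISAT2 2.1.0, DESeq2 1.34.0 and the mouse build mm10 were used. The annotation and the strand setting of the counting are not given in the sources used here, and the libraries were stranded, poly-A selected and read as pairs of 100 bases per the labels' protocols. Normalised values are whole reads divided by 1 size factor per library. Reads came out whole for 100% of values (tolerance 1e-06), which for intact and AAV-SIRT3 replicate 4, with size factors near 1, is a weaker proof. Depth was 47182420 to 64728400 reads. The 1 row without a gene name was left out, at most 0.00029% of a library.

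Groups and replicate numbers came from the sample titles, and all 18 columns were matched. Values were transformed to log2(value + 1), a scale on which changes of low genes are understated. limma 3.58.1 (R 4.3.3) was fitted to the 3 groups at once, with a mean-variance trend and 15 residual degrees of freedom, over the 19442 genes that reached 10 normalised reads in 6 or more libraries. Adjusted p is Benjamini-Hochberg over all these genes in each comparison, and called means under 0.05. Exact permutation tests ran over all 924 splits of 6 against 6 for 30 differences, and the p-values given above are unadjusted. Under Benjamini-Hochberg over these 30 alone, 6 members were under 0.05 in AAV-SIRT3 against intact mice. There were 2 in AAV-SIRT3 against AAV-GFP and 3 in AAV-GFP against intact mice. This test was not run on the other genes, so no share over all tested genes stands beside these counts. The limma step was tested on simulated data. Replicates are separate mice, per the series' design text. The members and the gene lists were chosen with earlier results of these data known, so no list was tested as a set. All 10 members are named. Related genes are named if called, up to the 6 largest in each direction, and Sod2, Nfe2l2 and Keap1 in any case. The 3 most alike genes of a member have the highest Pearson r among genes with a mean of at least 50, and some of them are not reported here.

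Coordinates, transcript lengths (the principal transcript) and GC content are from GENCODE M21 (GRCm38, the build of mm10), which matched 49093 of 55269 genes by symbol. Promoters are from RefSeq GRCm38.p6. Alternatives were 14 settings, 2 of them added after seeing the data, among them 2 count models fitted to the recovered reads (edgeR 4.0.16, DESeq2 1.42.0), and each of the 18 libraries left out in turn.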

Additional observations from a re-analysis of the deposited data

How the results depend on the processing

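The rises of Sod1, Gpx1, Gpx4, Prdx5 and Txn2 against intact mice passed under all 32 alternatives, with adjusted p up to 0.0233 (Prdx5). Leaving out single libraries gave 5 to 6 called members against intact, 0 to 5 for AAV-SIRT3 against AAV-GFP (5 without AAV-GFP replicate 2) and 0 to 0 for AAV-GFP against intact. In the last 2 comparisons, in that order, 1 member passed with length and GC trends removed (Txn2) and 1 at an adjusted p under 0.1 (Gpx4, at 0.0969, with a range of 0.0541 to 0.266 over alternatives). The cause of these changes was not tested.

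Counts over all genes were less stable. For AAV-SIRT3 against AAV-GFP, 22 calls became 304 with DESeq2, 8 with the 2 groups alone, 243 with length and GC trends removed, 80 at 0.1 and 5 to 861 without single libraries (lowest without AAV-SIRT3 replicate 5). For AAV-GFP against intact, 358 became 1000 with DESeq2, 164 without a filter, 199 with the 2 groups alone, 31 with the thalamus covariate, 1144 at 0.1, 214 without the 3 libraries of the steepest length trend, 10 without the 3 intact libraries of the lowest thalamus score, and 129 to 686 without single libraries (lowest without intact replicate 3, highest without AAV-GFP replicate 1). For AAV-SIRT3 against intact, 4214 became 1695 with the covariate and 1686 without those intact libraries, and stayed between 3279 and 4633 without single ones. Removing length and GC trends raised the share of higher calls to 80.7%, 68% and 75.7% in AAV-SIRT3 against AAV-GFP, AAV-GFP against intact and AAV-SIRT3 against intact, from 31.8%, 44.7% and 52.3%. With the covariate, 28 of 31 calls of AAV-GFP against intact were higher.

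Among related antioxidant genes, the 22 calls against intact became 14 without a filter and 13 without the 3 libraries of the steepest trend, and 14 to 24 without single libraries. The 0 calls against AAV-GFP became 3 with DESeq2, 4 with trends removed and 0 to 5 without single libraries. The 2 calls of AAV-GFP against intact became 4 with DESeq2, 4 at 0.1, 1 each with no filter, the 2 groups alone and the steepest libraries out, 0 with the covariate and with the intact libraries out, and 1 to 3 without single libraries.

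Same-numbered libraries varied little together (correlations -0.0953 to 0.175 over 18 pairs), and the main fit treats them as unpaired. In the highest case, replicate 1 of AAV-SIRT3 and intact, the same number was also the closest match. These correlations cannot show whether mice were matched by number in their handling. A fit with the replicate number as a block called 5, 0 and 0 members and 3923, 13 and 372 genes in AAV-SIRT3 against intact, AAV-SIRT3 against AAV-GFP and AAV-GFP against intact, and changed no call of a member.

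Differences that changed sign never passed. Nqo1 against AAV-GFP became 0.00154 with TMM, 0.0186 with trends removed, 0.00434 with the covariate and -0.0566 to 0.0623 without single libraries. Against intact, the covariate gave Nqo1 0.0933, Cat 0.0512 and Hmox1 0.137, the smaller intact group gave 0.0300, 0.0342 and 0.0542, and trend removal gave Cat 0.012. Single libraries left out gave -0.0747 to 0.029 for Nqo1 and -0.0469 to 0.00608 for Cat. In AAV-GFP against intact, Nqo1 became 0.089 with the covariate, 0.0321 with the smaller intact group and -0.0939 to 0.025 without single libraries, and Prdx3 -0.0152 to 0.0419. Without the steepest libraries, Txnrd2 against AAV-GFP was -0.0217 and Prdx3 in AAV-GFP against intact -0.0152.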
